A study of Homo sapiens with 14 samples.

Results

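The effect of TETi76 on messenger RNA was measured in K562 cells that were exposed to ascorbate in both arms. K562 is an established human erythroleukaemia line. The 4 libraries compared came from its subline K01 and were chosen by treatment label from the 14 libraries of the series. The design text lists K562 cells that are TET2+/+ and TET2-/-, and the K01 labels name no TET2 deletion. In 2 of them the cells had received 100 µM ascorbate alone, and in the other 2 they had received 12.5 µM TETi76 with 100 µM ascorbate, for 24 h in each case. The TETi76 + ascorbate group is called the treated group below, and the ascorbate group the control. A further 4 K01 libraries without ascorbate, 2 with DMSO and 2 with 12.5 µM TETi76, served for comparison. All 8 come from the same subline. The filter and the spread behind each p-value also drew on 2 DMSO libraries of the TET2-/- line K18, which were not compared. Whether replicates were cultured separately is not in the labels, and each p-value is therefore relative to a library-to-library spread that could be technical only.

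TETi76 is, in the title and design of the series, an inhibitor of TET dioxygenases. TET enzymes oxidise 5-methylcytosine in DNA and so open the way to its removal. They belong to a large family of dioxygenases that use iron and 2-oxoglutarate, and ascorbate keeps the iron of these enzymes in its reduced state. Ascorbate is also an antioxidant, and cells answer oxidants, electrophiles, damaged proteins and amino acid shortage through transcription programs that are described in turn below.

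Depth and identity of the libraries were examined before the comparison. The depth relative to the deepest K562 library, estimated from the value of 1 read in genes of low level, was 0.772 and 0.722 in the control libraries and 0.525 and 0.766 in the treated ones. Replicates correlated with r = 0.981 in the control group and 0.976 in the treated group, across 12534 genes on the log2 scale. Short RNA rows, which were left out, held 38.5% and 40.2% of the FPKM sum in the control libraries and 36.9% and 37.3% in the treated ones. The FPKM sum of all rows was 840154 and 868586 in the control and 774192 and 785649 in the treated libraries. Embryonic globin HBE1, an erythroid marker of K562, was at 5161 and 5275 FPKM (fragments scaled to gene length and library size) in the control libraries and at 3306 and 3413 FPKM in the treated ones. The erythroid factor GATA1 lay between 117 and 196 FPKM in the 4 libraries. In bulk RNA, fewer cells of a kind and less RNA per cell cannot be told apart.

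TETi76 changed the level of 3844 of the 12534 genes tested (30.7%), of which 1611 rose (12.9%) and 2233 fell (17.8%). These calls come from limma's moderated test on log2(FPKM + 1) with a Benjamini-Hochberg adjusted p under 0.05, and a fold on this scale understates the change of genes near 1 FPKM. Most changes were small, with a median absolute log2 change of 0.65 among called genes and 0.31 among all genes. A change of at least 2-fold was reached by 767 genes (6.12%), of which 403 rose (3.22%) and 364 fell (2.9%), and a change of at least 4-fold by 48 and 23. The treated and control libraries of every called gene stood apart, but so did those of 7888 genes in all (62.9%). The balance between directions depended on scaling. Risen genes made up 41.9% of the calls with the deposited values, 53% after setting equal sums for the rows kept, 48.7% after median-ratio scaling and 49.2% after quantile normalization. With the 4 ascorbate libraries alone in the fit, 1003 genes rose and 1589 fell.

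**Figure D1:**
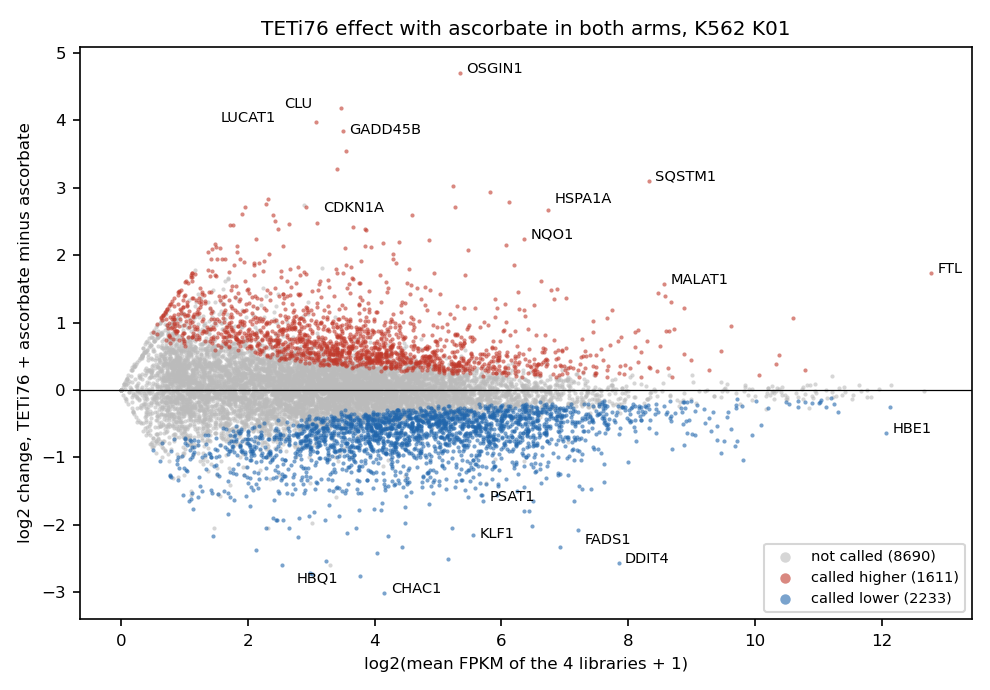
Change in level against mean level for the 12534 genes tested. The x axis is log2 of the mean FPKM of the 4 libraries plus 1, the y axis the log2 change (treated minus control); red points rose, blue points fell and grey points were not called. OSGIN1 has the largest rise (4.70) and CHAC1 the largest fall (-3.01), and the abundant ferritin gene FTL lies far to the right at 1.74.

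The largest rise was that of OSGIN1. OSGIN1, an oxidative stress induced growth inhibitor, was at 2.48 and 1.57 FPKM in the control libraries and at 79.5 and 74.6 FPKM in the treated ones. The difference was 38.1-fold between group means and 4.70 ± 0.17 (SE) on the log2 scale (limma, adjusted p = 3.96e-07). SQSTM1, which encodes the autophagy receptor p62, went from 65.1 and 66.9 to 576 and 572 FPKM, a log2 change of 3.10 ± 0.07 (limma, adjusted p = 4.6e-08). The spread between replicates of SQSTM1 was a small fraction of this difference. GADD45B, a growth arrest and DNA damage inducible gene, went from 0.459 and 0.491 to 19.4 and 20.9 FPKM. LUCAT1, a stress-induced noncoding transcript, had a listed value of 0 in each control library and reached 15.6 and 13.9 FPKM with treatment. Clusterin, CLU, a secreted chaperone, was listed at 0.355 and 0 in the control and rose to 22.1 and 18.2 FPKM. Between group means CLU rose 114-fold and GADD45B 42.5-fold, both more than OSGIN1, from control levels near the floor. The other leading risen genes by the rule stated in the processing section were UPP1 (uridine phosphorylase), CCRL2, ZFAND2A, IER3, HSPA1B, MT2A, SELM, HSPA1A, CDKN1A and VGF, with log2 changes from 2.47 to 3.54.

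CHAC1 fell most. CHAC1, a glutathione-degrading enzyme, was at 31.0 and 30.3 FPKM in the control and at 3.64 and 2.33 FPKM in the treated libraries, a log2 change of -3.01 ± 0.17 (limma, adjusted p = 4.16e-06). DDIT4, an inhibitor of the growth kinase mTORC1, went from 405 and 380 to 57.4 and 74.1 FPKM. The minor globin HBQ1 went from 26.0 and 19.8 to 2.63 and 2.41 FPKM. In each of these genes both treated libraries lay below both controls by far more than the gap between replicates. The phospholipase gene PLCD1 fell from 61.3 and 57.7 to 9.76 and 9.58 FPKM. FADS1, a fatty acid desaturase, fell from 238 and 237 to 54.2 and 56.5 FPKM, with a log2 change of -2.08 ± 0.06 (limma, adjusted p = 1.15e-07). The remaining leading fallen genes were HIST2H3D, INHBE, HAGHL, COMTD1, PCK2, ACSM3, KLF1, TUBB1, EGFL7 and HEMGN, with log2 changes from -2.73 to -2.01.

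**Figure D2:**
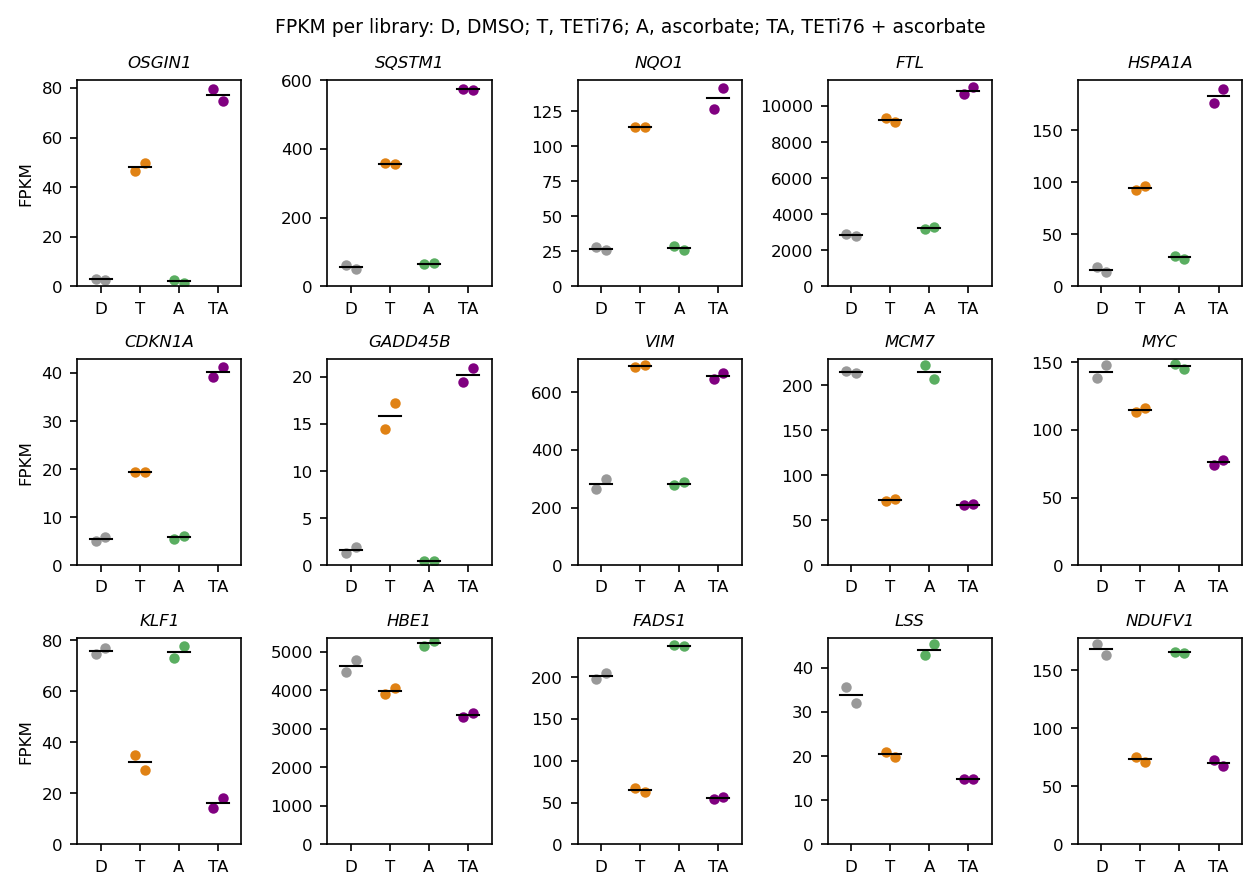
FPKM of 15 genes in each K01 library (points) with the mean of each group (bar), for DMSO (D), TETi76 (T), ascorbate (A) and TETi76 + ascorbate (TA). In every panel the TA points stand apart from the A points, as for every called gene, for example MCM7 at 66.9 and 68.3 against 222 and 207 FPKM.

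NRF2 targets rose in most of their members. NRF2 is a transcription factor that its partner KEAP1 marks for degradation until oxidants or electrophiles modify KEAP1, and it binds the antioxidant response element near genes of detoxification and redox balance. Of 30 NRF2 targets tested, 22 rose, 2 fell and 6 were not called. Their median log2 change was 0.99, against -0.011 over all genes. For this and the later lists, the shares over all genes tested are 12.9% risen and 17.8% fallen. NQO1, a quinone reductase, went from 29.0 and 26.2 to 127 and 142 FPKM, 2.24 ± 0.09 on the log2 scale (limma, adjusted p = 8.76e-07). The thioredoxin reductase TXNRD1 rose from 61.3 and 65.3 to 155 and 171 FPKM. Peroxiredoxin PRDX1 rose from 538 and 536 to 1064 and 1014 FPKM. The treated and control libraries of each of these stood apart, as they did for every called gene. The aldo-keto reductase AKR1C1 rose by 1.86 and GCLC and GCLM, the subunits of glutamate-cysteine ligase that limit glutathione synthesis, by 1.85 and 1.26 on the log2 scale. KEAP1 itself was not called, at 43.3 and 48.7 FPKM in the control and 51.1 and 60.2 FPKM in the treated libraries. The 2 fallen members were TALDO1, an enzyme of the pentose phosphate pathway, at -0.44, and BLVRB, biliverdin reductase B, at -0.45 on the log2 scale.

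Copies of the core of the antioxidant response element lie upstream of several of these risen genes. The 3 below show it in capitals, in the sense of the gene, 5′ to 3′.
GCLM: cgatttctGCTTAGTCAttgtcttc
TXNRD1: ggatttctGCTTTGTCAttctgact
ME1: tcctgccaTGACTCAGCgcttctcg
They lie at chr1:93909448-93909472 (minus strand), chr12:104286922-104286946 (plus strand) and chr6:83431172-83431196 (minus strand) of GRCh38.p14, in RefSeq promoter windows that run from 250 bases before to 50 bases after a transcript start. The letters searched were TGACNNNGC on both strands, so GCLM and TXNRD1 show the reverse complement. The match was present in 9 of the 31 windows of NRF2 targets (29%) and in 14.8% of the 13987 windows of all tested genes with a window. Among the windows of all risen genes it was present in 16.7%, and among those of all fallen genes in 15.1%. It was also found at KEAP1 and PGD, which were not called, so a match describes the sequence and not the response. ME1, malic enzyme, a source of NADPH, rose by 1.03 on the log2 scale.

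Ferritin, which stores iron, rose in both chains, and transferrin receptor fell. The light chain FTL was at 3192 and 3303 FPKM in the control and at 10653 and 11054 FPKM in the treated libraries, the highest level reached by any named gene. Its log2 change was 1.74 ± 0.04 (limma, adjusted p = 2.31e-08). The heavy chain FTH1 went from 993 and 1017 to 2054 and 2158 FPKM. TFRC, which brings transferrin-bound iron into the cell, fell from 117 and 112 to 69.2 and 69.7 FPKM, and its relative TFR2 fell by 1.30 on the log2 scale. The iron reductase STEAP3 fell by 1.22. Over the 19 genes of iron handling tested, 3 rose and 5 fell, with a median of -0.04, beside 12.9% and 17.8% of all genes. HAMP, the iron hormone hepcidin, was among the risen genes at 1.20 and 0 against 7.96 and 7.88 FPKM. Without the second ascorbate library its adjusted p was 0.0647 (limma).

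Metallothionein MT2A, a metal-binding protein, went from 10.6 and 7.97 to 64.8 and 66.3 FPKM. MTF1, the metal-sensing transcription factor of these genes, rose from 1.95 and 2.04 to 5.24 and 4.88 FPKM. These were the 2 called genes among 5 tested in the metallothionein list, whose median of 1.02 is the value of MTF1. The other metallothioneins tested, MT1G (0.79) and MT1X (1.08), were not called. In the list of glutathione synthesis and use, 5 of 20 genes rose and 5 fell, with a median of 0.00. The risen ones were enzymes that make, recycle or use glutathione. The fallen ones were CHAC1, which degrades it, and CBS and CTH, which make cysteine from homocysteine. They also included GPX4 (-0.33) and GSTO1 (-0.63), which use glutathione as some of the risen enzymes do. CBS went from 134 and 133 to 40.1 and 35.5 FPKM. The count of fallen genes in this list was 3 without the second ascorbate library and also without the second treated library. Of 15 genes of the pentose phosphate pathway and NADPH supply, 2 rose and 9 fell, with a median of -0.44. The isocitrate dehydrogenase IDH1, which makes 2-oxoglutarate and NADPH in the cytosol, went from 57.5 and 58.6 to 28.6 and 26.5 FPKM, and its mitochondrial relative IDH2 from 56.7 and 64.5 to 25.4 and 26.3 FPKM.

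Genes of protein clearance rose in the proteasome and lysosome. Of 37 proteasome genes, 21 rose and 1 fell, by small steps, with a median of 0.24 and a highest change of 0.75, in PSMB6. The risen count was 16 with the 4 ascorbate libraries alone in the fit, and lower than 21 whenever 1 of them was left out. The fallen count was 0 without the second ascorbate library and 2 without any other of the 4. PSMB7, a catalytic-ring subunit, rose from 228 and 204 to 341 and 331 FPKM. Of 27 lysosome and V-ATPase genes, 16 rose and 1 fell, with a median of 0.38. With the 4 ascorbate libraries alone in the fit 13 of them rose, and fewer than 16 whenever 1 library was left out. The fallen count was 0 without the first treated library and 2 without the second. The protease cathepsin L, CTSL, went from 62.2 and 51.3 to 158 and 164 FPKM, and cathepsin B, CTSB, from 33.3 and 38.3 to 83.2 and 85.1 FPKM. TFE3, a transcription factor of lysosomal genes, rose from 14.5 and 15 to 31.2 and 32.8 FPKM. Among 17 autophagy receptors and related genes, 5 rose and 2 fell, with a median of 0.19. The fallen count was 0 without the first library of either group and 1 without the second of either. GABARAPL1, which tags autophagosome membranes, rose by 1.74 and its relative MAP1LC3B by 0.45 on the log2 scale.

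Heat-shock chaperones moved in both directions, and 11 of 24 genes of the list rose. These proteins refold or hold damaged proteins, and the factor HSF1 induces them. HSPA1A was at 29.2 and 26.8 FPKM in the control and at 176 and 190 FPKM in the treated libraries, 2.67 ± 0.12 on the log2 scale (limma, adjusted p = 9.42e-07). HSPA1B, a near-identical copy whose reads cannot be cleanly separated from those of HSPA1A, rose by 2.79. The cochaperone BAG3 went from 15.1 and 11.6 to 40.5 and 39.7 FPKM. The small chaperone HSPB8 was listed at 0 in both control libraries and at 6.92 and 4.52 FPKM in the treated ones. The 3 fallen genes of the list were the mitochondrial chaperones HSPD1 (-0.45) and HSPA9 (-0.41) and HSF1 itself (-0.27), and the median of the list was 0.27. Heat-shock elements upstream of HSPA1A and HSPB8 are shown with the letters GAANNTTC in capitals, in the sense of the gene.
HSPA1A: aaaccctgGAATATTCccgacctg
HSPB8: tcacctccGAATATTCctgtgaca
They lie at chr6:31815429-31815452 and chr12:119178835-119178858 (both plus strand, GRCh38.p14, RefSeq windows as above). These letters, which read the same on both strands, were present in 14 of 33 windows of the chaperone list (42.4%), in 4.94% of all windows, in 5.93% of those of all risen genes and in 4.11% of those of all fallen genes. They were also found at HSPA8, HSP90AB1, HSPB1 and CHORDC1, which were not called, and at HSPD1, which fell.

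Of 22 endoplasmic reticulum chaperones and genes of the unfolded protein response, 5 rose and 4 fell, with a median of 0.07. Among all genes 12.9% rose and 17.8% fell. The count of risen genes was 3 without the second treated library, 8 under equal sums and 7 under median-ratio scaling and under quantile normalization. HSPA5, the main chaperone of this compartment, went from 98.4 and 101 to 128 and 129 FPKM, and XBP1, a factor of the response, from 54.6 and 58.6 to 32.4 and 42.1 FPKM.

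Targets of ATF4 fell. ATF4 is translated when amino acids run short or other stresses phosphorylate eIF2α, and it turns on genes that make, import and charge amino acids. ATF4 messenger RNA itself was at 341 and 350 FPKM in the control libraries and at 164 in each treated one, a log2 change of -1.07 ± 0.05 (limma, adjusted p = 2.42e-06). Of the 32 genes tested in the list of ATF4 targets, which counts ATF4 itself, 23 fell, 4 rose and 5 were not called, with a median of -0.69. PSAT1, an enzyme of serine synthesis, went from 81.8 and 75.4 to 25.7 and 23.3 FPKM. The mitochondrial PCK2 fell from 35.8 and 33.7 to 5.02 and 7.40 FPKM. TRIB3, a pseudokinase that feeds back on ATF4, fell from 73.3 and 76.0 to 48.2 and 41.0 FPKM, and the stress sensor SESN2 from 39.8 and 43.9 to 20.6 and 20.3 FPKM. The treated and control libraries of these 4 genes stood apart, as they did for every called gene and for 62.9% of all genes. Among the risen targets, SLC3A2, the heavy chain shared by several amino acid transporters, went from 132 and 128 to 299 and 297 FPKM, 1.19 ± 0.07 on the log2 scale (limma, adjusted p = 3.78e-06). PPP1R15A, which helps to remove phosphate from eIF2α, rose from 48.2 and 42.0 to 83.1 and 83.6 FPKM.

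C/EBP-ATF response elements, the binding sites of ATF4 with C/EBP partners, lie upstream of CHAC1 and of ASNS, asparagine synthetase. They are shown with TGATGNAA, or its reverse complement at CHAC1, in capitals.
CHAC1: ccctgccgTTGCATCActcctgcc
ASNS: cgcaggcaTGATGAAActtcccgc
The positions are chr15:40953254-40953277 (plus strand) and chr7:97872461-97872484 (minus strand) of GRCh38.p14. The letters were present in 7 of 40 windows of ATF4 targets (17.5%), in 1.95% of all windows and in 2.31% of the windows of all fallen genes. ASNS fell from 99.8 and 111 to 52.2 and 56.1 FPKM. ATF3, which also holds the letters upstream, rose by 0.57 on the log2 scale.

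Related pathways of amino acid supply also fell, and some of their genes are in the ATF4 list too. Of 16 enzymes of serine and one-carbon metabolism, 12 fell and none rose, with a median of -0.79. The mitochondrial folate enzyme MTHFD2 went from 143 and 141 to 49.4 and 58.5 FPKM. Of 20 cytosolic aminoacyl-tRNA synthetases, which charge transfer RNAs, 17 fell and none rose, with a median of -0.63. The valine enzyme VARS went from 139 and 147 to 67.3 and 67.6 FPKM. Of the 17 mitochondrial synthetases 6 fell and 2 rose, with a median of -0.38, and 3 fell without the first treated library. The count of risen ones was 0 when any 1 of the 4 libraries was left out. Of 16 amino acid transporters, 9 fell and 2 rose, with a median of -0.58. The arginine transporter SLC7A1 went from 25.1 and 25.4 to 8.02 and 8.84 FPKM.

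**Figure D3:**
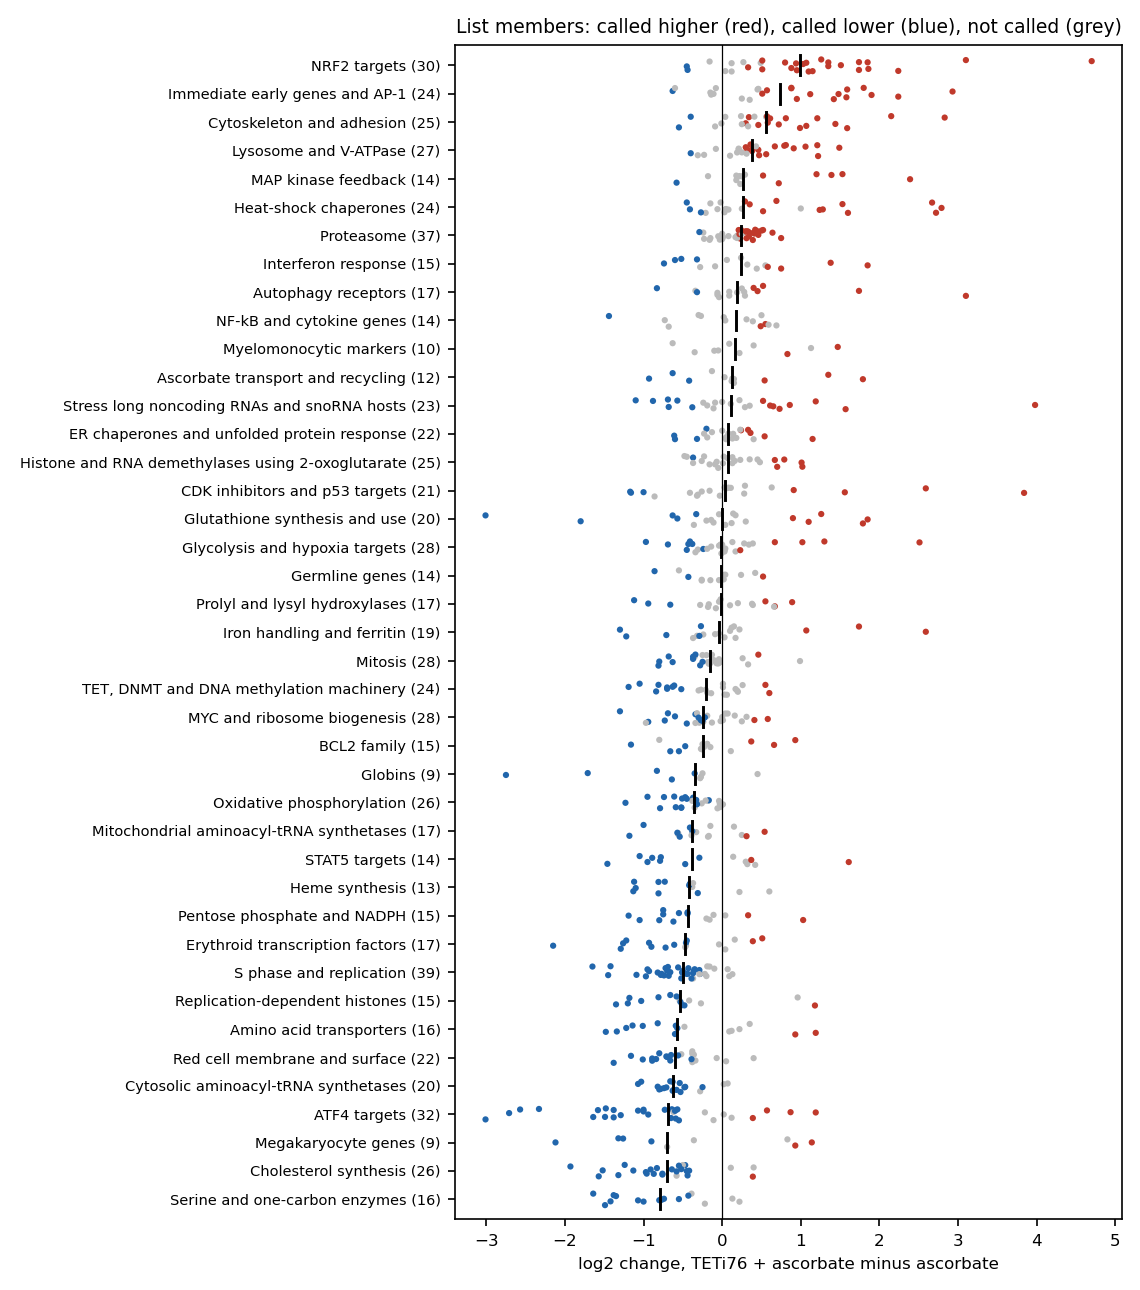
Log2 change (treated minus control) of the tested members of the lists with at least 9 tested genes. Each point is a gene, red if it rose, blue if it fell and grey if it was not called; the black bar is the median and the number of tested genes stands in brackets. NRF2 targets have the highest median (0.99) and serine and one-carbon enzymes the lowest (-0.79).

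Genes of DNA replication fell together. Of 39 genes of S phase and replication, 29 fell and none rose, with a median of -0.50. MCM7, a subunit of the helicase that opens replication origins, went from 222 and 207 to 66.9 and 68.3 FPKM, -1.65 ± 0.06 on the log2 scale (limma, adjusted p = 3.34e-07). POLD1, the catalytic subunit of DNA polymerase delta, fell from 70.4 and 67.7 to 27.0 and 22.4 FPKM. TYMS, which makes thymidylate, fell from 94.6 and 82.6 to 30.5 and 34.6 FPKM, and the sliding clamp PCNA from 167 and 160 to 105 and 95.8 FPKM. Under equal sums for the rows kept, 24 genes of the list fell, and without the first ascorbate library 1 rose. An E2F site, bound by the factors that drive S phase genes, lies upstream of MCM6, whose level went from 68.2 and 70.5 to 40.1 and 40.6 FPKM.
MCM6: gctttgcaTTTGGCGCgaaatccc
It lies at chr2:135876580-135876603 (minus strand, GRCh38.p14). The letters TTTGGCGC were present in 7 of 44 windows of the list (15.9%) and in 1.03% of all windows, and the related TTTCGCGC in 6 (13.6%) and 0.922%. At MCM6 the TTTCGCGC form overlaps this site on the other strand. That form was also found upstream of POLA2, which was not called.

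Other growth genes moved in part, and their counts stand beside 12.9% risen and 17.8% fallen over all genes. Of 28 genes of mitosis, 9 fell and 1 rose, with a median of -0.16. The count of fallen genes was 5 without the first treated library and 4 after quantile normalization, and that of risen genes was 3 without the second ascorbate library. Topoisomerase TOP2A fell from 113 and 119 to 75.5 and 73.8 FPKM, while CDC20, an activator of the anaphase-promoting complex, rose from 87.2 and 85.7 to 121 and 117 FPKM. Of 15 replication-dependent histone genes seen in this polyadenylated RNA, 10 fell and 1 rose, with a median of -0.54, and none rose without the first ascorbate library or without either treated one. The linker histone HIST1H1C went from 1239 and 1162 to 619 and 560 FPKM. Among 21 CDK inhibitors and p53 targets, 4 rose and 3 fell, with a median of 0.03, and 5 fell without the first treated library. CDKN1A, the inhibitor p21, rose from 5.56 and 6.14 to 39.2 and 41.2 FPKM, whereas the proapoptotic BBC3 fell from 27.1 and 24.1 to 9.48 and 12.4 FPKM. K562 cells lack functional p53. MYC, a factor of growth and ribosome production, went from 149 and 145 to 74.4 and 78.0 FPKM, -0.94 ± 0.06 on the log2 scale (limma, adjusted p = 7.69e-06). Of 28 genes of the MYC network and ribosome biogenesis, 11 fell and 2 rose, with a median of -0.25. The risen count was 1 without the second library of either group and 0 without the first treated one. Of 15 BCL2 family genes, 3 rose and 4 fell, with a median of -0.25.

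Sterol and mitochondrial genes also fell. Of 26 genes of cholesterol synthesis and its control, 21 fell and 1 rose, with a median of -0.70. Lanosterol synthase, LSS, went from 42.9 and 45.3 to 14.7 and 14.8 FPKM. SREBF1, a master factor of lipid synthesis, went from 33.7 and 32.0 to 10.5 and 10.2 FPKM. Of 26 nuclear genes of oxidative phosphorylation, 15 fell and none rose, with a median of -0.36. NDUFV1, a core subunit of complex I, went from 166 and 165 to 72.3 and 67.6 FPKM, and the beta subunit of ATP synthase, ATP5B, from 761 and 762 to 497 in each treated library. Glycolysis and hypoxia targets were mixed, with 5 risen and 7 fallen of 28 and a median of -0.01, beside 12.9% and 17.8% of all genes. Pyruvate kinase PKM rose from 232 and 238 to 572 and 586 FPKM and NDRG1 from 0.388 and 0.833 to 6.94 and 9.34 FPKM, while VEGFA fell from 43.5 and 36.3 to 25.2 and 23.3 FPKM.

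The erythroid program of K562 fell. KLF1, a factor that activates globin and red cell genes, was at 73.0 and 77.9 FPKM in the control and at 14.4 and 18.1 FPKM in the treated libraries, -2.15 ± 0.12 on the log2 scale (limma, adjusted p = 3.09e-06). Of 17 erythroid transcription factors, 10 fell and 2 rose, with a median of -0.47, and 1 rose when any 1 of the 4 libraries was left out. NFE2 went from 165 and 168 to 73.1 and 65.3 FPKM, and GATA1 from 177 and 196 to 117 and 127 FPKM. The globin list had 9 tested genes, of which 5 fell and none rose, with a median of -0.35. The 5 were the globins HBZ, HBE1, HBA1 and HBQ1 and AHSP, a chaperone of alpha globin. The call of AHSP was lost without the first ascorbate library (adjusted p = 0.233, limma) and without the second treated one (adjusted p = 0.253, limma). HBE1, whose values stand above, fell by 0.64 ± 0.04 on the log2 scale (limma, adjusted p = 8.68e-06). The fetal HBG1 was not called, at 1184 and 1339 against 958 and 1123 FPKM, nor was HBG2, at 1981 and 2046 against 1607 and 1745 FPKM. The near-identical sequences of HBG1 and HBG2, and of HBA1 and HBA2, make the split between copies uncertain. Of 13 enzymes and carriers of heme synthesis, 9 fell and none rose, with a median of -0.42, and 1 rose without the first ascorbate library. In this list UROD went from 266 and 267 to 119 and 130 FPKM. Of 22 red cell membrane and surface genes, 13 fell and none rose, with a median of -0.60. Spectrin SPTB went from 29.6 and 28.7 to 11.8 and 9.53 FPKM.

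GATA sites, bound by GATA1, lie upstream of SPTB and of the Kell blood group gene KEL, which fell by 0.89 on the log2 scale. They are shown with AGATAA in capitals.
SPTB: ccctcctcAGATAAtgttattt
KEL: agaagctgAGATAAagggggag
The positions are chr14:64879936-64879957 and chr7:142962412-142962433 (both minus strand, GRCh38.p14). The letters were present in 12 of 22 windows of the red cell membrane list (54.5%). They were present in 5.83% of all windows and in 5.38% of the windows of all fallen genes. In this list they were also found upstream of GYPB, EPB42 and RHCE, which were not called.

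Markers of other lineages were read beside the erythroid ones. Of 9 megakaryocyte genes tested, 4 fell and 2 rose, with a median of -0.70, and 1 rose without the second treated library. The platelet tubulin TUBB1 went from 20.1 and 16.0 to 4.32 and 2.55 FPKM, and PF4, PPBP, SELP and TREML1 were at 0 in the 4 libraries. The summed level of the 18 genes of this list was 314 and 300 FPKM in the control and 135 and 131 FPKM in the treated libraries. Of 10 myelomonocytic markers tested, 2 rose and none fell (median 0.16), 1 rose without the second ascorbate or the first treated library, and FCN1 was at 0. SPI1, the myeloid factor PU.1, rose from 7.38 and 6.70 to 20 and 22.4 FPKM, and the summed level of all 20 markers was 51.7 and 54 FPKM in the control against 72.7 and 65 FPKM in the treated libraries. Of the 16 lymphoid markers, only 3 passed the filter on low values and CD2, CD79B and MS4A1 were at 0. CD3D rose from 19.7 and 11.3 to 24.6 and 38.1 FPKM, a call lost without the second ascorbate library (adjusted p = 0.142, limma) and without the second treated one (adjusted p = 0.133, limma). Among 17 stromal, endothelial and epithelial markers 5 were tested and 3 rose, the keratins KRT8, KRT18 and KRT19. KRT8 went from 222 and 197 to 541 and 561 FPKM, while the epithelial adhesion gene EPCAM was not called, at 49.6 and 44.3 against 37.2 and 39.1 FPKM. LUM, CDH5, KRT5 and KRT14 were at 0, and the median of the 5 was 0.89. The summed level was 546 and 512 against 1160 and 1134 FPKM for this list, and 22.8 and 13.6 against 29.5 and 43.9 FPKM for the lymphoid one, whose median was 0.98. The part of any other cell type in the results was not tested.

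Lists of cytoskeletal and signalling genes were read next. Of 25 cytoskeleton and adhesion genes, 15 rose and 2 fell, with a median of 0.56, and the fallen count was 1 without the first ascorbate or the second treated library. Vimentin, VIM, went from 278 and 288 to 644 and 666 FPKM, tropomyosin TPM4 from 24.1 and 23.2 to 111 and 106 FPKM, and annexin ANXA1 from 203 and 179 to 513 and 526 FPKM. Of 24 immediate early and AP-1 genes, 14 rose and 1 fell, with a median of 0.73. IER3 went from 14.6 and 9.98 to 95.2 and 103 FPKM, and the AP-1 subunit FOSL1 from 11.6 and 7.48 to 34.8 and 35 FPKM. Of 14 MAP kinase feedback genes 6 rose and 1 fell, with a median of 0.27, and none fell without the first library of either group. The phosphatase DUSP5 went from 0.636 and 0.928 to 7.90 and 8.74 FPKM. Of 14 STAT5 targets, 8 fell and 2 rose, with a median of -0.38. The kinase PIM1, a STAT5 target downstream of the BCR-ABL1 fusion in this line, went from 228 and 225 to 82.9 and 80.3 FPKM, while the feedback inhibitor SOCS1 rose from 3.32 and 3.12 to 16.2 and 8.69 FPKM.

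The remaining lists were mixed, beside shares of 12.9% risen and 17.8% fallen over all genes. Of 14 NF-kB and cytokine genes 2 rose and 1 fell (median 0.18). The risen count was 1 without the first ascorbate library or either treated one, and the fallen count 0 without either ascorbate library or the first treated one. Of 15 interferon response genes 4 rose and 4 fell (median 0.24). The risen count was 2 without the first library of either group, and the fallen count 2 without the second ascorbate or the first treated library. In this list the abundant IFITM1 fell from 837 and 846 to 513 and 494 FPKM. Of 14 germline genes 1 rose and 2 fell (median -0.01). The risen count was 2 without the first treated library, and the fallen count was 1 without the first ascorbate library and 0 without the second library of either group. Of 23 stress long noncoding RNAs and hosts of small nucleolar RNAs 8 rose and 6 fell (median 0.11), and MALAT1, a nuclear RNA, rose from 189 and 193 to 570 and 566 FPKM.

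The messenger RNAs of the enzymes that TETi76 addresses were then read. They say nothing of enzyme activity, which was not measured. TET1 went from 6.56 and 6.68 to 3.79 and 4.19 FPKM, a log2 change of -0.61 ± 0.13 (limma, adjusted p = 0.0072). With the 4 ascorbate libraries alone in the fit its adjusted p was 0.0552 (limma). TET2 was at 2.12 and 1.16 FPKM in the control and at 2.21 and 1.79 FPKM in the treated libraries, and TET3 at 7.14 and 5.34 against 6.45 and 6 FPKM. The groups of TET2 and of TET3 overlapped and neither was called. Their log2 changes were 0.20 ± 0.22 for TET2 and 0.01 ± 0.15 for TET3, so a change of a few SE could have been missed. In the list of 24 TET, DNMT and related genes, 9 fell and 2 rose, with a median of -0.20, and 1 rose without the second library of either group. The maintenance methyltransferase DNMT1 fell from 69.6 and 72.3 to 44.2 and 42.6 FPKM, DNMT3A from 8.84 and 7.75 to 3.65 and 4.73 FPKM, and DNMT3B rose from 23.8 and 24.6 to 35.8 and 38.5 FPKM.

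Other dioxygenases that use 2-oxoglutarate were read in the same way, beside shares of 12.9% risen and 17.8% fallen over all genes. The counts of the hydroxylase list lie near these shares. Of 25 histone and RNA demethylases, 5 rose and 1 fell, with a median of 0.07. The fallen count was 3 without the first treated library and 0 without any other of the 4. KDM3A, a hypoxia-inducible H3K9 demethylase, went from 10.0 and 13.8 to 24.2 and 25.6 FPKM, and KDM2A from 11.9 and 11.1 to 22.9 and 25.6 FPKM. Of 17 genes in a list of prolyl, lysyl and other hydroxylases, 3 rose and 3 fell, with a median of -0.02. The risen count was 1 without the second treated library. EGLN2, which hydroxylates hypoxia-inducible factors, fell from 56.2 and 53.1 to 30.4 and 38.6 FPKM. ASPH, from the other hydroxylases of the list, rose from 15.9 and 16.1 to 29.1 and 32.0 FPKM. Of 12 genes in a list of ascorbate transport and recycling that also holds antioxidant enzymes, 3 rose and 3 fell, with a median of 0.12. None of its tested transporters (SLC23A2, SLC2A1, SLC2A3 and SLC2A8) was called. Glutaredoxin, GLRX, rose from 4.14 and 3.28 to 14.9 and 15.5 FPKM, and catalase, CAT, fell from 74.0 and 77.1 to 37.9 and 40.8 FPKM.

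The response was next set beside that to TETi76 without ascorbate, which shares no library with it. Without ascorbate 2921 genes were called (23.3%), of which 1204 rose (9.61%) and 1717 fell (13.7%). Of the 1611 genes that rose with ascorbate, 781 also rose without it (48.5% of the former and 64.9% of the latter). Of the 2233 that fell, 1263 also fell without it (56.6% and 73.6%). Only 11 genes rose with ascorbate and fell without it, and 16 did the opposite. The difference between the responses passed the test at 79 genes (0.63%), higher with ascorbate at 35 (0.279%) and lower at 44 (0.351%), and 1708 genes had an unadjusted p under 0.05. These counts moved with single libraries. Without the first library of TETi76 alone limma called 0 genes, and without each of the other 7 K01 libraries it called between 3 and 71.

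**Figure D4:**
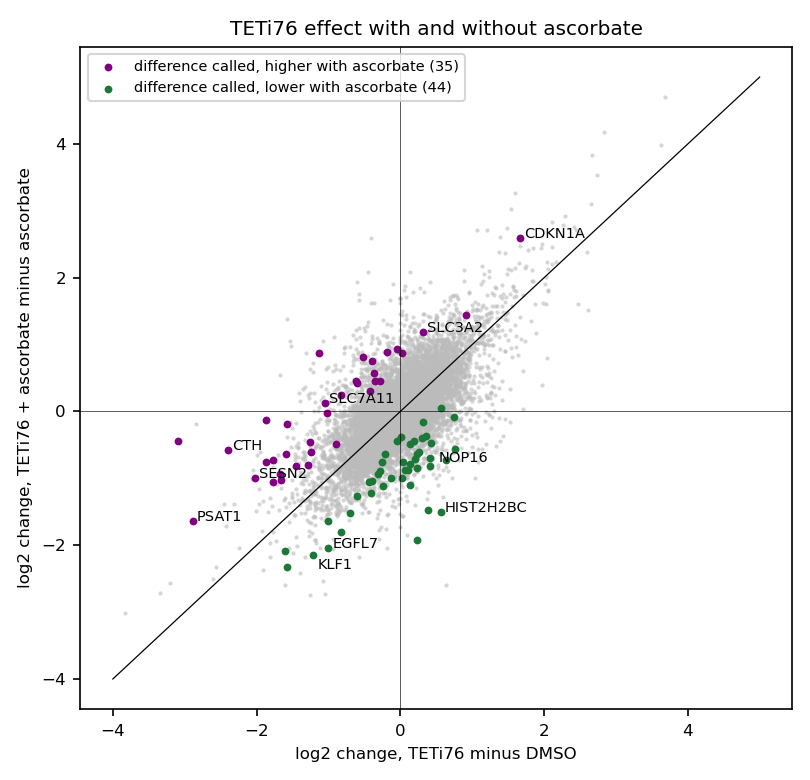
Log2 change under TETi76 with ascorbate (y axis) against that without (x axis) for 12534 genes. Purple and green points are the 79 genes whose difference was called, the others are grey, and the diagonal marks equal changes. PSAT1, CTH and SESN2 fell less with ascorbate, and KLF1 and EGFL7 fell more.

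ATF4 targets made up 11 of the 35 genes whose log2 change was higher with ascorbate, which for a fallen gene means a smaller fall. Without ascorbate 29 of the 32 genes of the list fell and the median was -1.5, against -0.69 with it. PSAT1 was at 155 and 156 FPKM in the DMSO libraries and at 19.5 and 20.9 FPKM with TETi76 alone. The ascorbate controls thus lay below the DMSO controls, and the TETi76 libraries with ascorbate slightly above those without. Its 2 log2 changes were -2.89 and -1.64, and their difference was 1.24 (limma, adjusted p = 0.0108). CTH was at 27.4 and 25.8 FPKM with DMSO, 11.3 and 13.7 with ascorbate, 3.73 and 4.79 with TETi76 and 8.77 and 7.43 with both. In CTH the level under TETi76 was higher with ascorbate as well, and the difference in log2 was 1.83 (limma, adjusted p = 0.0108). The fall of CTH with ascorbate was -0.57 on the log2 scale and was not called without the second ascorbate library (adjusted p = 0.0947, limma) or without the second treated one (adjusted p = 0.0801, limma). SLC7A11, the cystine importer, was not called with ascorbate, at 7.33 and 7.80 against 7.61 and 9.08 FPKM, and fell from 11 and 10.8 to 5.24 and 4.33 FPKM without it. The number of ATF4 targets among the called differences ranged from 0 to 12 when 1 library was left out, with 0 in the absence of the first TETi76 library and 1 in that of the first DMSO library.

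**Figure D5:**
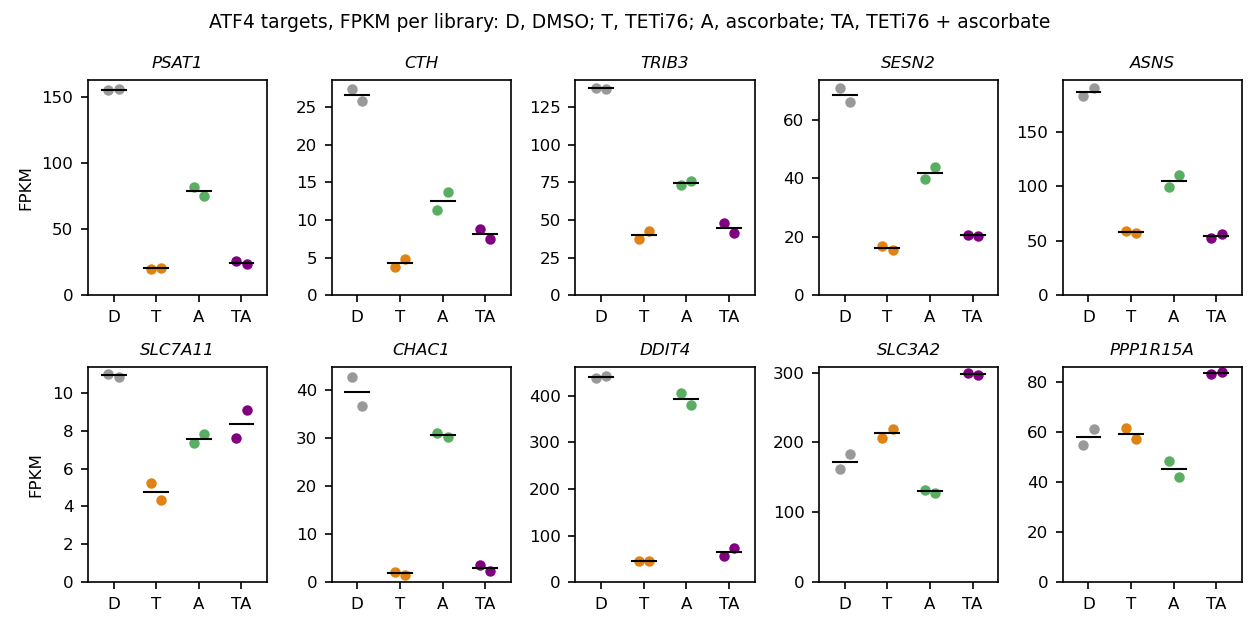
FPKM of 10 ATF4 targets in each K01 library (points) with group means (bars), for DMSO (D), TETi76 (T), ascorbate (A) and TETi76 + ascorbate (TA). For PSAT1, TRIB3 and ASNS the A points lie below the D points while the T and TA points lie nearer to each other, and for SLC3A2 the TA points, at 299 and 297 FPKM, are the highest.

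Genes whose log2 change was lower with ascorbate included erythroid and growth genes, which for KLF1 and MYC means a larger fall. KLF1 reached 35 and 29.3 FPKM with TETi76 alone from 74.7 and 77.0 FPKM with DMSO, and its difference in log2 was -0.94 (limma, adjusted p = 0.0473). MYC went from 138 and 148 with DMSO to 113 and 116 FPKM with TETi76 alone, and the difference was -0.63 (limma, adjusted p = 0.0173). TFRC was at 88.8 and 85.8 FPKM with DMSO and at 104 and 99.3 FPKM with TETi76, so that it rose without ascorbate and fell with it, and the difference was -0.93 (limma, adjusted p = 0.0108). CDKN1A, by contrast, reached 19.5 and 19.4 FPKM with TETi76 alone from 5.08 and 5.88 FPKM and its difference was 0.92 (limma, adjusted p = 0.0471). The NRF2 targets held 1 such difference in 30, that of SLC7A11, with 20 risen and 3 fallen without ascorbate. The difference of none of these genes was called in every fit that left out 1 of the 8 K01 libraries. It was called in 0 of the 8 fits for CDKN1A, in 1 for KLF1 and for SLC7A11, in 2 for MYC and in 7 for TFRC. In the 10 other alternatives it was called in 5 for CDKN1A, 4 for KLF1, 7 for SLC7A11 and 10 for MYC and for TFRC.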

How the data were processed

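Polyadenylated RNA of K562 cells was sequenced. The authors deposited 1 value per gene and library, named as counts, which are fragments scaled to length and library size: they are treated here as FPKM, per the values, and FPKM cannot be told apart from RPKM or from TPM of a larger table. The submitters' processing notes name hg19, STAR, edgeR 3.24.3 and limma 3.38.3, with no role. Of 26171 rows, 26 number-named and 2273 short RNA rows were left out. Depth sets the precision of low values. In a check, 89.4% of 6063 values under 0.15 FPKM were whole multiples of 1 read within 0.02 read.

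Genes with at least 1 FPKM in at least 2 of the 10 K562 libraries were fitted on log2(FPKM + 1) with limma 3.58.1 (R 4.3.3), with its trend and robust options. The fit covers 5 groups and also holds the DMSO libraries of the TET2-/- line K18. The test was two-sided, with Benjamini-Hochberg adjustment over all 12534 genes and a threshold of 0.05. The method was tested on simulated data. Same-numbered libraries of the treated and control groups did not deviate together (r = -0.0233), and the main fit used no pairing. This value cannot tell whether same-numbered libraries were cultured or prepared together. Alternatives changed the pseudocount, filter, scaling, robust option, libraries in the fit, or added a replicate block. Values are FPKM per library, and ± is SE.

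The rule for named genes takes, in each direction, the 15 largest called changes among genes whose higher group averages at least 10 FPKM and whose libraries do not overlap; up to 5 per direction for the difference between responses; up to 5 called members per list with the largest change (the 2 most abundant where fewer than 2 were called); and TET1, TET2 and TET3. A further 16 genes were named after their values were seen, ATF4, TRIB3 and PRDX1 among them, as were TALDO1, BLVRB, PGD, GPX4 and any other gene that spells out a small count or a motif match. The 44 gene lists and the comparison were chosen with earlier results of these data known. List counts and medians are descriptions, with no test, and lists share genes. Sequences are RefSeq's, of 13987 windows of 9824 tested genes. K18 and SIGM5 comparisons were not made.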

Additional observations from a re-analysis of the deposited data

Results flagged for a closer look

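The response to TETi76 differed with and without ascorbate, by limma's test of the difference itself (adjusted p under 0.05), at 32 of the named genes. The values are differences in log2 change, with ascorbate minus without. Among ATF4 targets and genes of amino acid supply and charging, the difference was 1.83 for CTH, 1.24 for PSAT1, 1.17 for SLC7A11, 1.03 for TRIB3, 1.02 for SESN2, 0.89 for SLC3A2, 0.84 for PPP1R15A and 0.73 for ASNS. It was 0.63 for CARS, 0.63 for WARS and 0.49 for AARS, the synthetases of cysteine, tryptophan and alanine. The difference was also positive for XRCC4 (1.15), FAM129A (1.13), CDKN1A (0.92), MAP1LC3B (0.73), IDH1 (0.72) and ANXA1 (0.52). Of these, FAM129A and IDH1 fell less with ascorbate than without it.

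A negative difference, which can be a larger fall or a change of direction, was found for HIST2H2BC (-2.06), C20orf24 (-1.85), TMEM158 (-1.36), ZNF593 (-1.33), ASIC4 (-1.24), NOP16 (-1.10) and EGFL7 (-1.04). TMEM158, ZNF593, ASIC4 and NOP16 rose without ascorbate and fell with it. HIST2H2BC and C20orf24 fell with it and were not called without it, and EGFL7 fell more with it. In erythroid and iron genes the difference was -0.94 for KLF1, -0.93 for TFRC, -0.81 for GFI1B and -0.42 for HBE1. KLF1, GFI1B and HBE1 fell more with ascorbate, and TFRC rose without it and fell with it. In lipid and growth genes the difference was -0.82 for LSS, -0.76 for ACSM3, -0.63 for MYC and -0.47 for FADS1, and each of these fell more with ascorbate.

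When each of the 8 K01 libraries was left out in turn, none of the 32 differences was called every time, and 11 were never called. CTH, PSAT1, SLC3A2 and TFRC were called in at least 6 of the 8 fits. No difference changed sign in these fits.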

How the results depend on the processing

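For the 228 named genes called, over up to 15 alternatives each (from 5 FPKM some were not tested), 3268 values kept direction and call, 139 (in 35 genes) lost the call and 0 reversed. Among the 9 named genes not called, TET3 turned to -0.02 after quantile normalization, and leaving out 1 library gave -0.17 to 0.19 for TET3 (below 0, at -0.17 and -0.04, without the second ascorbate or the first treated one) and -0.06 to 0.47 for TET2 (below 0 without the second ascorbate one). EPCAM passed the threshold from 5 FPKM, HBG2 (-0.27) with the 4 ascorbate libraries alone KEAP1 (0.43) after quantile normalization and NKG7 (1.69) without the second treated library. The count of genes called was 3719 with a replicate block, 3748 and 3810 with pseudocounts of 0.1 and 0.5, and from 2698 to 2944 when 1 of the 4 libraries was left out, where the lone sample is assumed to vary like the other groups; 1003 rose with the 4 ascorbate libraries alone. Of 1320 list counts, 140 moved by over 1.5 times. The 79 differences between responses became 46 with the replicate block (21 higher, 25 lower) and 26 without K18 (13 and 13). They became 42 with no filter (23 and 19) and 138 from 5 FPKM (58 and 80). The lower ones were 28 under equal sums and 29 under quantile normalization. Leaving out 1 library gave 0 to 71 in all, 0 to 22 higher and 0 to 49 lower. The cause of these shifts was not tested. With 2 libraries a group, an exact permutation test of 1 gene cannot go below 0.333, so the calls rest on a spread pooled over genes. The first treated library was the shallowest, and genes near 1 FPKM are the least certain.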
